A study of Mus musculus with 12 samples.

Results

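The laminin chains are the subunits of the laminins, the main network-forming glycoproteins of basement membranes, and 9 of them were followed in lung endothelial cells (ECs) during growth of breast cancer metastases. The 9 genes were taken by name, Lama1 to Lama5 for the α chains, Lamb1, Lamb2 and Lamb3 for the β chains and Lamc1 for the γ1 chain, out of 18193 genes that had a probe set with a single symbol. All 9 were measured, by 17 probe sets in total, and no filter on low values was applied. Where a chain had several probe sets, the one with the highest 12-array mean was used, and the other 8 probe sets, which belong to 5 of the genes, served as a check.

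ECs were sorted from the lungs of female NSG mice aged 6 to 8 weeks, an immunodeficient strain without lymphocytes, and all groups share this background. There were 3 arrays from healthy lungs (control) and 3 each from lungs taken 1, 2 and 3 weeks after MDA231-LM2 cells, a derivative of a human breast cancer line selected for growth in the lung, had been given intravenously. The labels call the 3 arrays of a group biological replicates without giving the number of mice behind each. The sort kept CD31+ cells and removed those positive for GFP or for the antigens CD45, CD11b, EpCAM, CD140a and CD140b. Total RNA was amplified from picogram input and hybridized to Affymetrix mouse arrays, and the values are log2 signals.

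A laminin is a heterotrimer of 1 α, 1 β and 1 γ chain, joined in a coiled coil and named by the numbers of its chains. The α chain carries the globular domains that bind integrins and dystroglycan, while the short arms of the chains polymerize into the sheet to which nidogen, perlecan and collagen IV attach. Vessels of adult tissue are known for laminins built of α4 or α5 with β1 and γ1, made by ECs themselves. The α2 chain is typical of muscle, mural and mesenchymal cells, α3 pairs with β3 in the laminin of epithelial hemidesmosomes and of the alveolar wall, and α1 is best known from the first basement membranes of the early embryo. The study singled out Lama1 as a gene of the metastatic vascular niche starting from these same arrays, so its rise here is not independent evidence. The choice also used independence of VEGF and qPCR of sorted lung cell types. The paper further reported a rise by qPCR in other metastasis models and in protein of sorted ECs. It also reported LAMA1 staining in ECs of human lung metastases and experiments on its function in breast cancer cells.

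Stretches upstream of the start sites are shown for 4 chains that stand for 3 kinds of course: Lamb1, which was lowest at week 2 and highest at week 3, Lama2 and Lamb3, which were lower at week 3 than in control, and Lama5, which passed no test. RefSeq promoter entries were at hand for 5 of the 9 chains, and each sequence below is the 250 bases before a RefSeq start, 5′ to 3′ on the strand of the gene, build GRCm38.p6. Their coordinates are chr12:31265043-31265292 on the + strand for Lamb1, chr10:27616943-27617192 on the − strand for Lama2, chr1:193301744-193301993 on the + strand for Lamb3, which is the first of 2 entries for this gene, and chr2:180225860-180226109 on the − strand for Lama5. Capitals mark matches on either strand to the TATA box TATAAA, the CCAAT box CCAAT, the GC box GGGCGG or the AP-1 site TGANTCA.
Lamb1: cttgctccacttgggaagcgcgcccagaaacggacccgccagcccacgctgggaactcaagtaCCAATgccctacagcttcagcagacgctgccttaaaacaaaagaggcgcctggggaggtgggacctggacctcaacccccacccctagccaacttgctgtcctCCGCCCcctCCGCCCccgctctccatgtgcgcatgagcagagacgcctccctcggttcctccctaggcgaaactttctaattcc
Lama2: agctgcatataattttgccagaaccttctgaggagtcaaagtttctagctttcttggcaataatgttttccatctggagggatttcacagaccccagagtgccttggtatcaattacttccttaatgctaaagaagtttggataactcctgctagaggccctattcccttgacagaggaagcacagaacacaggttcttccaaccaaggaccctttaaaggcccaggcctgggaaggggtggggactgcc
Lamb3: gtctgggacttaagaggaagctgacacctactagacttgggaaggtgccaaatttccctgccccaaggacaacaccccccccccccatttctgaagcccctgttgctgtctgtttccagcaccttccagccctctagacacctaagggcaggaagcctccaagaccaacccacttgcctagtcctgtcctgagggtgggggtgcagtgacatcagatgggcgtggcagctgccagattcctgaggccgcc
Lama5: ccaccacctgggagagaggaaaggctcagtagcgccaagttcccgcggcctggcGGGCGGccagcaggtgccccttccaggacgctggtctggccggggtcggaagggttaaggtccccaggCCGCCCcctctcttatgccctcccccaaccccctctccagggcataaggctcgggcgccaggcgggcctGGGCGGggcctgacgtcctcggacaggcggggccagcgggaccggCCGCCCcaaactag
In the Lamb1 stretch there were 1 CCAAT box and 2 GC boxes, in the Lama5 stretch 4 GC boxes, and in the Lama2 and Lamb3 stretches 0 matches to any of the 4 motifs, and no match overlapped another. A CCAAT match occurs in 33.8% and a GC box in 32.7% of the 32851 promoter entries of the same length, compared with 12.4% for the TATA box and 6.75% for AP-1. Of the 250 bases, 62.0% were G or C for Lamb1 and 72.4% for Lama5, compared with 47.2% for Lama2 and 58.8% for Lamb3. The stretch of Lamb2, which like Lama5 passed no test, is not shown. It had 0 matches and 43.6% G or C, so Lama5 does not stand for both unchanged chains in these letters. These matches describe letters only.

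Across the 4 groups, 7 of the 9 chains passed the moderated F test of limma over all 12 arrays, which asks whether a gene differs anywhere in the time course (adjusted p between 0.000603 and 0.0359), whereas 5.25% of all genes did. The exceptions were Lama5 and Lamb2, with adjusted p = 0.701 and 0.733. All adjusted p-values here come from limma with Benjamini–Hochberg correction over 45037 probe sets, pairs of groups were fitted 2 at a time, and a gene is said to have risen or fallen where the adjusted p was below 0.05. At week 3 compared with control, 1 chain rose (Lama1), 3 fell (Lama2, Lama3 and Lamb3) and 5 did not pass the test. That is 44.4% of the chains, where 5.01% of all genes were called, 2.38% as risen and 2.63% as fallen. The week 3 and control arrays did not overlap for 7 chains, as for 30.0% of all genes. At weeks 1 and 2 the count was 0 of 9, with 0.0495% and 0.242% of all genes called, although 5 and 6 chains had an unadjusted p below 0.05, as did 8.98% and 10.5% of all genes. The same numbers of chains, 5 at week 1 and 6 at week 2, had arrays that did not overlap with control, where 16.1% and 17.7% of all genes did so. The 3 weeks share the control arrays.

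**Figure D1:**
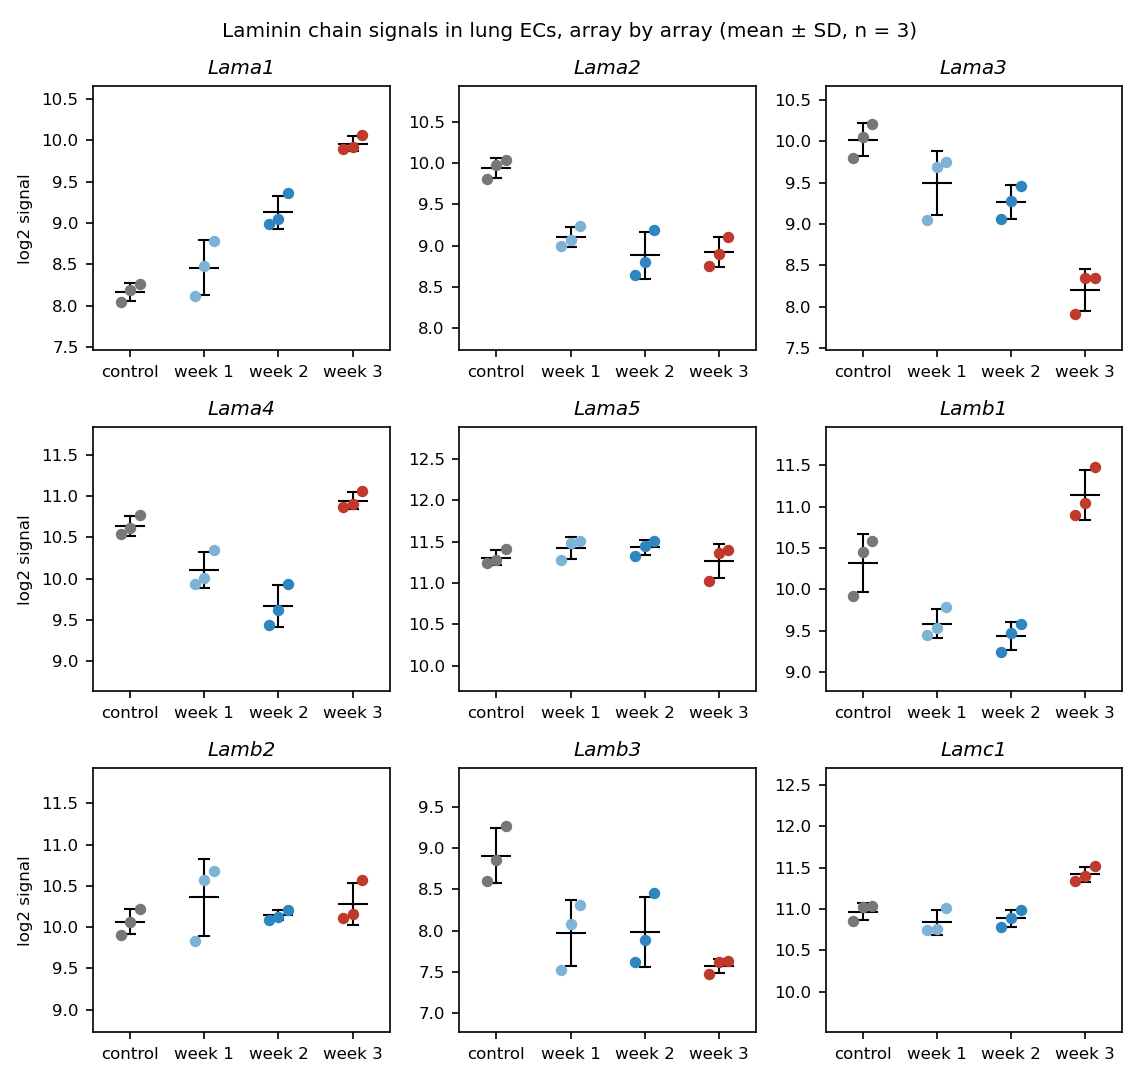
Log2 signal (vertical axis, the same span in each panel) of the 9 laminin chains in control and at weeks 1, 2 and 3; points are single arrays and bars the mean ± SD of 3 arrays. Lama1 climbs to 9.96 at week 3, Lama3 drops to 8.20, Lama4 and Lamb1 are lowest at week 2 and highest at week 3, and Lama5 and Lamb2 keep overlapping groups throughout.

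The α1 chain showed the only rise against control that passed the test. Lama1 had log2 signals of 8.05, 8.27 and 8.19 in control, 8.48, 8.78 and 8.12 at week 1, 8.98, 9.05 and 9.36 at week 2, and 10.07, 9.90 and 9.92 at week 3. Week 1 overlapped control, every week 2 array lay above every control and week 1 array, and the week 3 arrays lay above all others. Lama1 averaged 9.96 ± 0.09 at week 3 and 8.17 ± 0.11 in control (SD, n = 3 each), a 3.46-fold rise (log2 fold change, log2FC, of 1.79 with a standard error, SE, of 0.11, adjusted p = 0.00103). At week 2 the log2FC was 0.96 (SE 0.13, adjusted p = 0.0609), and at week 1 it was 0.29 (SE 0.18, adjusted p = 0.683). The step between the last time points was significant as well, with 9.96 at week 3 and 9.13 ± 0.20 at week 2 (log2FC of 0.83, SE 0.13, adjusted p = 0.0334). Leaving out any 1 of the 6 arrays ended this call (adjusted p between 0.0629 and 0.111), while the rise over control held without any one array (adjusted p between 0.00581 and 0.00819). Lama1 had 1 probe set, so no second probe set could be set beside it.

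Lama4, the α chain of the main endothelial laminin with β1 and γ1, took another course. Its signals were 10.77, 10.61 and 10.54 in control, 9.94, 10.01 and 10.35 at week 1, 9.62, 9.94 and 9.44 at week 2, and 10.90, 10.87 and 11.06 at week 3. All arrays of weeks 1 and 2 lay below control, and all arrays of week 3 lay above it. The difference from control passed the test at no time point, with log2FC values of -0.54 at week 1, -0.97 at week 2 and 0.30 at week 3 (SE 0.15, 0.15 and 0.12, adjusted p = 0.283, 0.0807 and 0.199). Between the last time points Lama4 rose, to 10.94 ± 0.10 at week 3 against 9.66 ± 0.25 at week 2 (SD, n = 3 each), a log2FC equal to 1.28 (SE 0.15, adjusted p = 0.0193). The second probe set of Lama4 rose too (0.90, SE 0.13, adjusted p = 0.0287). The call was lost without replicate 1 or 3 of either week (adjusted p between 0.0429 and 0.0774 over the 6 arrays left out in turn).

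The other α chain of vascular laminins, Lama5, lay between 11.03 and 11.51 in all 12 arrays, and its groups overlapped in each of the 6 comparisons. It averaged 11.26 ± 0.21 at week 3 and 11.31 ± 0.09 in control (SD, n = 3 each). The log2FC was -0.045, with a 95% confidence interval from -0.36 to 0.27 and adjusted p = 0.887. The 2 other Lama5 probe sets had log2FC values of -0.07 and -0.35 at week 3 and did not pass either.

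Lamb1 and Lamc1 encode the partners that α4 and α5 share in vessel walls. Lamb1 had signals of 10.46, 10.59 and 9.92 in control, 9.53, 9.45 and 9.78 at week 1, 9.48, 9.58 and 9.24 at week 2, and 11.48, 11.04 and 10.90 at week 3. As for Lama4, arrays of weeks 1 and 2 were all below control and those of week 3 all above. At week 3 the log2FC over control was 0.82 (SE 0.22, adjusted p = 0.0926), and weeks 1 and 2 had -0.74 and -0.89 (SE 0.20 and 0.19, adjusted p = 0.26 and 0.175). The call at week 3 depended on the probe set. Of the other 3 Lamb1 probe sets, 2 rose against control, by log2FC values of 1.15 and 0.83 (SE 0.18 and 0.16, adjusted p = 0.0191 and 0.0392), and the dimmest had 0.40 (SE 0.45, adjusted p = 0.674). Relative to week 2, Lamb1 rose with all but that dimmest probe set. It averaged 11.14 ± 0.31 at week 3 and 9.43 ± 0.17 at week 2 (SD, n = 3 each), a 3.26-fold difference (log2FC of 1.71, SE 0.18, adjusted p = 0.0165), and the others had 1.78, 1.11 and 0.63 (adjusted p = 0.0114, 0.0465 and 0.184). Without week 2 replicate 1 or 3 the probe set used no longer passed (adjusted p between 0.0363 and 0.0719 over the 6 arrays left out in turn).

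Lamc1, the γ chain of most laminins, moved within a narrower range. Its signals were 11.03, 11.02 and 10.85 in control, 10.75, 10.76 and 11.01 at week 1, 10.78, 10.98 and 10.89 at week 2, and 11.34, 11.40 and 11.52 at week 3. The week 3 arrays lay above the other 9. Still, no pair of groups passed the test in the 2-group fits, with log2FC values at week 3 of 0.45 over control, 0.54 over week 2 and 0.58 over week 1 (SE 0.11, 0.10 and 0.13, adjusted p = 0.0707, 0.0594 and 0.112). The F test over all groups did (adjusted p = 0.0292). With all 12 arrays in 1 fit, which shares the spread among groups, week 3 passed against control for Lamc1 (adjusted p = 0.0341) and Lamb1 (adjusted p = 0.0318). The count of chains was then 6, and the share of all genes called in that fit is not given here. In that fit Lamc1 also passed against week 2 (adjusted p = 0.0266) and week 1 (adjusted p = 0.0207). It passed all 3 of these comparisons with the mean of its probe sets (adjusted p between 0.0244 and 0.0437) and with a trended and robust variance (adjusted p between 0.0181 and 0.0290). The second Lamc1 probe set passed none of them in the 2-group fits. It had log2FC values of 0.33 over control, 0.53 over week 2 and 0.69 over week 1 (adjusted p = 0.212, 0.111 and 0.0894). With 1 array left out, Lamc1 passed none of them either (adjusted p of 0.107 or more).

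Lamb2, which replaces β1 in vessel and synaptic laminins, lay between 9.83 and 10.68 and overlapped between groups in every comparison. It averaged 10.28 ± 0.26 at week 3 and 10.07 ± 0.16 in control (SD, n = 3 each), a log2FC equal to 0.21 (95% confidence interval from -0.16 to 0.59, adjusted p = 0.508). The widest spread was at week 1, with arrays at 10.68, 10.57 and 9.83.

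**Figure D2:**
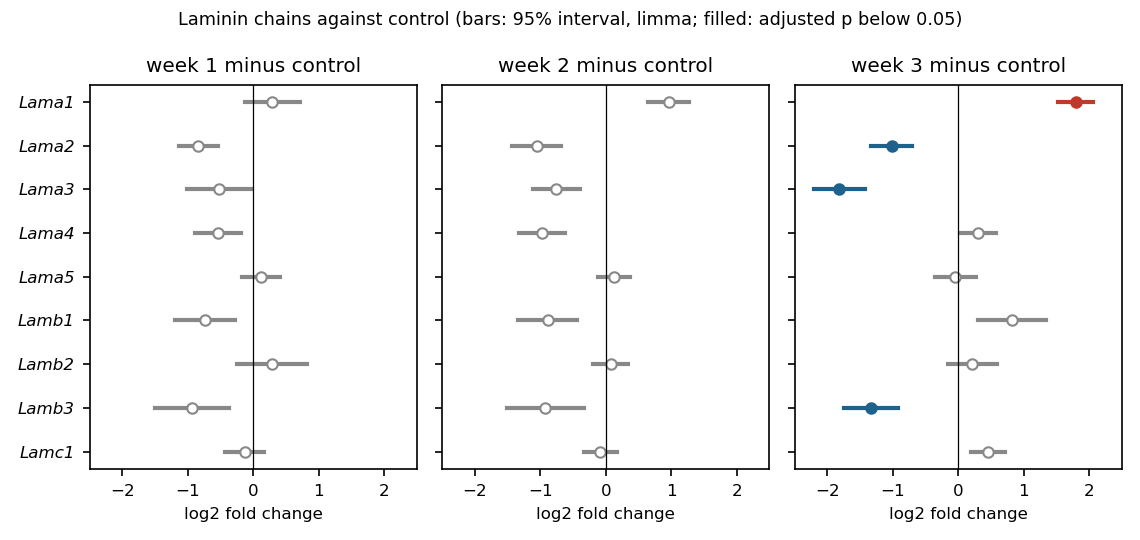
Log2 fold change (horizontal axis) of each laminin chain at weeks 1, 2 and 3 against control; bars are 95% confidence intervals of limma and filled points passed an adjusted p of 0.05. At week 3, Lama1 lies at 1.79 and Lama2, Lama3 and Lamb3 at -1.02, -1.82 and -1.33, whereas all points of weeks 1 and 2 are open.

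The 3 chains that fell at week 3 are best known from cells other than ECs. Lama2 encodes the α2 chain of LN211, the laminin bound by dystroglycan on muscle. It had signals of 9.98, 9.80 and 10.03 in control, 8.996, 9.07 and 9.24 at week 1, 8.65, 9.19 and 8.80 at week 2, and 9.11, 8.90 and 8.75 at week 3. All 9 arrays of metastatic lungs lay below the control arrays, and they overlapped one another. Lama2 averaged 8.92 ± 0.18 at week 3 and 9.94 ± 0.12 in control (SD, n = 3 each), 2.03-fold lower (log2FC of -1.02, SE 0.13, adjusted p = 0.0102). The differences at weeks 1 and 2 were of like size without passing the test (log2FC values of -0.84 and -1.06, SE 0.13 and 0.16, adjusted p = 0.0655 and 0.0755). Week 3 and week 2 differed by 0.039 (95% confidence interval from -0.36 to 0.44).

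Lama3, the α chain of the epithelial laminin LN332, fell furthest of the 9. Its signals were 10.06, 10.21 and 9.80 in control, 9.75, 9.05 and 9.69 at week 1, 9.46, 9.28 and 9.06 at week 2, and 7.91, 8.35 and 8.34 at week 3. The week 3 arrays lay below all others, and weeks 1 and 2 overlapped. Lama3 averaged 8.20 ± 0.25 at week 3 and 10.02 ± 0.20 in control (SD, n = 3 each), 3.53-fold lower (log2FC of -1.82, SE 0.17, adjusted p = 0.00326), and it also fell relative to week 2 (-1.06, SE 0.16, adjusted p = 0.0328). A second, dim probe set of Lama3, whose mean of 7.24 lay under the median of 8.13 of all values, gave log2FC values of 0.16, 0.25 and 0.0095 at weeks 1, 2 and 3, so the fall rests on 1 of 2 probe sets. Omitting any 1 array ended the call against week 2 (adjusted p between 0.0663 and 0.107) but not that against control.

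Lamb3, the β chain that joins α3 in LN332, was measured at 9.26, 8.86 and 8.60 in control, 7.53, 8.08 and 8.31 at week 1, 7.89, 8.45 and 7.62 at week 2, and 7.47, 7.62 and 7.63 at week 3. Every array of metastatic lungs was below every control array, and the 3 weeks overlapped. The mean was 7.57 ± 0.09 at week 3 and 8.91 ± 0.33 in control (SD, n = 3 each), 2.52-fold lower (log2FC of -1.33, SE 0.18, adjusted p = 0.0105), with log2FC values of -0.94 and -0.92 at weeks 1 and 2 (SE 0.24 and 0.25, adjusted p = 0.238 and 0.262). The week 3 level was below the overall median of 8.13.

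Fibroblast, mural, alveolar and airway cells should be left out by the sort, and the mean of each of their marker lists was also lower at week 3 than in control. Pdgfra, which encodes CD140a, had signals of 9.12 to 9.95 at week 3 and 11.82 to 11.99 in control, and Pdgfrb, which encodes CD140b, had 8.92 to 9.66 at week 3 and 10.13 to 10.47 in control. Of 11 fibroblast markers, 7 fell at week 3, with a median log2FC of -1.07 and a mean signal of 10.69 to 10.86 at week 3 and 11.63 to 11.73 in control. Among 11 mural markers 2 fell (median -0.42), with a mean signal of 8.96 to 9.08 at week 3 and 9.46 to 9.63 in control, and the largest change was that of Abcc9, a potassium channel subunit of pericytes (-1.68, SE 0.25, adjusted p = 0.0157). Of 6 markers of alveolar type 1 cells 5 fell (median -1.32), with a mean signal of 8.70 to 9.10 at week 3 and 10.07 to 10.24 in control. Ager, the receptor typical of these cells, fell most (-1.81, SE 0.17, adjusted p = 0.00387). Of 6 alveolar type 2 markers measured, 3 fell (median -0.79), most of all the phosphate transporter gene Slc34a2 (-1.57, SE 0.18, adjusted p = 0.00703), and their mean signal was 10.35 to 10.78 at week 3 and 11.24 to 11.34 in control. Of 11 airway markers 3 fell (median -0.26), with a mean signal of 8.14 to 8.30 at week 3 and 8.66 to 9.06 in control, and the club cell enzyme gene Cyp2f2 fell most (-2.20, SE 0.46, adjusted p = 0.0476). None of these 45 markers rose, where 2.38% of all genes rose and 2.63% fell.

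At weeks 1 and 2 these lists had negative medians too, of -0.64 and -1.01 for fibroblasts, -0.59 and -0.70 for mural cells, -0.98 and -0.72 for alveolar type 1 cells and -1.12 and -0.89 for alveolar type 2 cells. Their courses were not all those of the chains. Over weeks 1, 2 and 3 the mean of the alveolar type 2 list differed from control by -1.02, -0.85 and -0.77, and Lama3 by -0.52, -0.76 and -1.82. Other pairs lay closer. The alveolar type 1 list differed by -0.89, -0.64 and -1.25, and Lamb3 by -0.94, -0.92 and -1.33. For the fibroblast list the values were -0.72, -0.99 and -0.89, and for Lama2 -0.84, -1.06 and -1.02. The mural list had -0.76, -0.80 and -0.52. The part of these cells in the falls of Lama2, Lama3 and Lamb3 was not tested, and in bulk arrays fewer cells of a type and less RNA per cell cannot be told apart. No marker is at 0 on this scale, and Epcam, the antigen of the epithelial gate, was dim in all groups, at 6.95 to 7.19 at week 3 and 7.43 to 7.49 in control.

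**Figure D3:**
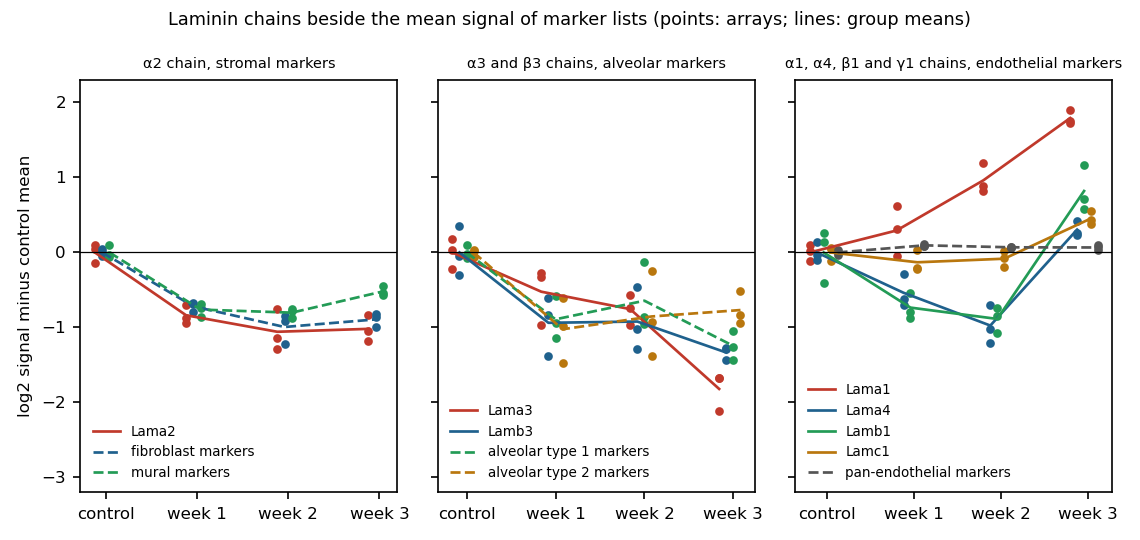
Log2 signal minus the mean of the control arrays (vertical axis) for laminin chains (solid lines) and for the mean of marker lists (dashed lines); points are arrays and lines join the means of 3 arrays per group. Lama2 runs with the fibroblast markers (-1.02 and -0.89 at week 3), Lama3 ends below the alveolar lists (-1.82, -1.25 and -0.77), and the pan-endothelial markers lie between -0.029 and 0.11 in every array.

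Of the 20 markers on the pan-endothelial list, 1 rose at week 3 and none fell, a share like the 5.01% of all genes called, with a median of 0.0026. The risen marker was Cd34 (log2FC of 0.60, SE 0.10, adjusted p = 0.0248), and Pecam1, which encodes CD31, lay between 13.40 and 13.53 in all arrays. Leukocyte markers, like Lama4 and Lamb1, had their lower levels at weeks 1 and 2. The mean signal of 10 pan-leukocyte markers was 8.73 to 9.22 in control, 8.11 to 8.80 at week 1, 8.23 to 8.82 at week 2 and 9.17 to 9.30 at week 3. At week 3, 1 of them rose against control, Fcer1g, an Fc receptor subunit (0.60, SE 0.11, adjusted p = 0.0291). Between week 3 and week 2, 2 of the 10 rose and none fell (median 0.81), and Ptprc, which encodes CD45, had 9.13 to 9.44 at week 3 and 7.72 to 9.07 at week 2. Macrophage markers averaged 8.67 to 8.997 at week 3 and 8.40 to 8.51 in control, with 2 of 10 rising, most of all the complement gene C1qa (1.48, SE 0.30, adjusted p = 0.0425), and 1 falling, while 0 of 6 platelet, 0 of 5 mesothelial and 0 of 3 Schwann cell markers passed at week 3. The largest differences on lists whose leading marker did not pass were 0.65 for Emcn (endothelial), 0.37 for Itga2b (platelet), -0.81 for Krt19 (mesothelial) and 0.14 for Cdh19 (Schwann cell). For platelets the mean signal was 9.40 to 9.56 in control, 8.28 to 8.67 at week 1, 9.12 to 9.18 at week 2 and 9.33 to 9.74 at week 3. RNA integrity was read from the Gapdh control probe sets, whose 3′ signal exceeded the 5′ signal on the log2 scale by 0.37 to 0.69 in control, 0.42 to 0.53 at week 1, 0.30 to 0.41 at week 2 and 0.24 to 0.40 at week 3. The part of these in the courses of Lama1, Lama4, Lamb1 and Lamc1 was not tested.

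The time points were also compared with one another. At week 3 relative to week 2, 3 chains rose (Lama1, Lama4 and Lamb1), 1 fell (Lama3) and 5 did not pass, where 2.10% of all genes were called, 1.35% as risen and 0.748% as fallen. At week 3 relative to week 1, 2 rose, Lama1 (log2FC of 1.50, SE 0.18, adjusted p = 0.0215) and Lamb1 (1.55, SE 0.18, adjusted p = 0.0205), and 7 did not pass, where 0.841% of all genes were called, 0.649% as risen. Lama3 and Lama4 came near (log2FC values of -1.30 and 0.84, adjusted p = 0.0633 and 0.0661). Between week 2 and week 1 limma called 0 chains and 0 of all genes, and 2 chains, Lama1 and Lama4, had an unadjusted p below 0.05, as did 1192 genes (6.55%). Arrays did not overlap for 5 chains between week 3 and week 2 (25.4% of all genes), for 5 between week 3 and week 1 (21.7%) and for 2 between week 2 and week 1 (13.1%). The 4 calls against week 2 became 0 when week 2 replicate 1 or 3 was left out, 1 when week 3 replicate 1 or 3 was, and 2 when replicate 2 of either week was. Of the 2 calls against week 1, that of Lamb1 was lost without any 1 of the 6 arrays (adjusted p between 0.0602 and 0.0948). That of Lama1 held only without week 1 replicate 2 (adjusted p = 0.0371), when Lama3 passed as well (adjusted p = 0.0477). Against control, Lama1, Lama2, Lama3 and Lamb3 each passed at week 3 when any 1 of the 6 arrays was left out, and no other chain did.

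Ordered by mean level, Lama1 ran from control through weeks 1 and 2 to week 3, and of the neighbors in this order only week 2 and week 3 differed significantly. Lama4 and Lamb1 had the order week 2, week 1, control, week 3, in which no pair of neighbors passed the test with the probe sets used. For Lama3 the order was week 3, week 2, week 1, control, and only weeks 3 and 2 differed. Over the 12 arrays, Lama4 and Lamb1 correlated with r = 0.90, Lamb1 and Lamc1 with 0.87 and Lama4 and Lamc1 with 0.79, while Lama1 and Lama3 ran in opposite directions (-0.95). After group means were removed, these were 0.43, 0.33, 0.77 and -0.71. Lama2 and Lamb3 correlated with r = 0.85 and, within groups, 0.49. These describe arrays that share their hybridization and group.

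**Figure D4:**
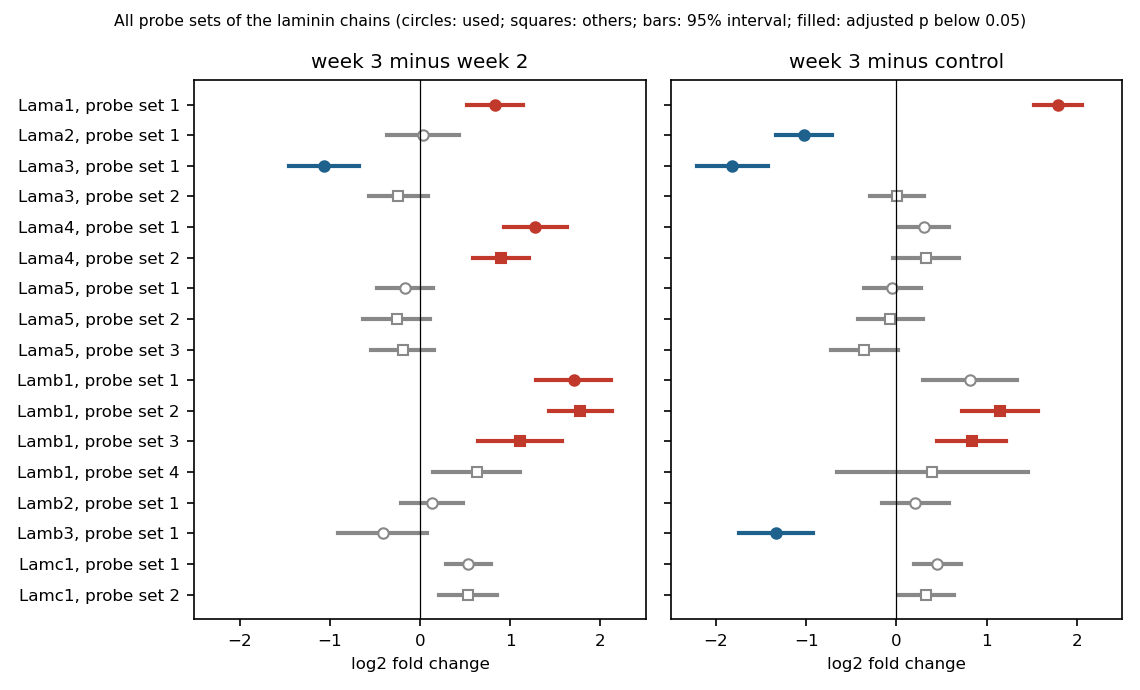
Log2 fold change (horizontal axis) at week 3 against week 2 (left) and against control (right) for all 17 laminin probe sets, with 95% confidence intervals; circles are the probe sets used, squares the others, and filled symbols passed an adjusted p of 0.05. All 4 Lamb1 probe sets lie right of 0 in both panels, 3 of them filled against week 2 and 2 against control, and the second Lama3 probe set lies at 0.0095 against control.

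The genes whose profile over the 12 arrays came closest to each called chain were sought among 3939 genes with an SD of at least 0.3. For Lama1 they were Tap1, a peptide transporter of antigen presentation, Lrg1, a secreted leucine-rich glycoprotein, and Sema7a, a semaphorin (r = 0.95, 0.95 and 0.94). Lrg1 had a log2FC equal to 1.94 at week 3 (SE 0.18, adjusted p = 0.00348). Lama2 was closest to Npnt, which encodes the integrin α8β1 ligand nephronectin, the smooth muscle myosin gene Myh11, which is on the mural list, and Ndrg2 (r = 0.97, 0.93 and 0.93). Npnt and Myh11 had log2FC values of -1.16 and -0.88 at week 3. For Lama3 the nearest were Cpm, which encodes carboxypeptidase M, Glis2 and Svip (r = 0.96, 0.95 and 0.94). Lamb3 was closest to Col4a4, a chain of specialized collagen IV, Mal2 and Gucy1a1, a subunit of soluble guanylate cyclase (r = 0.97, 0.96 and 0.96). All these genes were picked over the same arrays for their likeness to chains called at week 3. Their own changes at week 3 follow from that choice and are not separate results.

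Other components of the basement membrane changed in both directions. Of 18 partners of laminin, 3 rose, 3 fell and 12 did not pass at week 3 compared with control, with a median log2FC of 0.14, while the median of all genes was 0.026. Of all genes, 2.38% rose and 2.63% fell in this comparison, 5.01% in total. Vwa1, which encodes the matrix protein WARP, rose by a log2FC equal to 2.38 (SE 0.15, adjusted p = 0.00103). Its level was 10.60 at week 3 and 8.22 in control. Col15a1, a multiplexin collagen of vessel basement membranes, rose by 1.92 (SE 0.13, adjusted p = 0.00135), and Col18a1, the source of endostatin, was the remaining rise. Col4a3 and Col4a4, whose chains form the collagen IV of alveolar and glomerular walls, fell (-2.11 and -1.50, SE 0.28 and 0.14, adjusted p = 0.0111 and 0.0031), and so did the fibulin gene Fbln1, which is also on the fibroblast list. Col4a3 averaged 7.97 ± 0.50 at week 3 and 10.08 ± 0.37 in control, and Col4a4 averaged 7.52 ± 0.15 at week 3 and 9.02 ± 0.17 in control (SD, n = 3 each). The alveolar and fibroblast lists given above were lower at week 3 too, and their part in these falls was not tested.

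Receptors of laminin and genes that act on it were compared between week 3 and control as well, where 5.01% of all genes were called. Of 18 laminin receptors, 1 rose, 1 fell and 16 did not pass, with a median of 0.032. The risen gene was Itgb3, which encodes the β3 integrin that binds vitronectin and pairs with αv in vessels (log2FC of 1.10, SE 0.14, adjusted p = 0.00948), and the fallen one was the heparan sulfate proteoglycan gene Sdc2 (-1.53, SE 0.18, adjusted p = 0.00714). The mean signal of Itgb3 was 10.15 at week 3 and 9.05 in control, and that of Sdc2 was 8.20 at week 3 and 9.73 in control. Of 10 proteases measured that cleave laminin, 2 fell, Mmp2 (-0.57, SE 0.10, adjusted p = 0.0283) and Mmp3 (-0.67, SE 0.14, adjusted p = 0.0453), and none rose. No call was made among 7 measured genes of dystroglycan glycosylation, where 0 had an unadjusted p below 0.05, or among 16 of the integrin adhesion complex, where 4 did, and their medians were -0.051 and -0.18. Of all genes, 21.4% had an unadjusted p below 0.05 in this comparison.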

How the data were processed

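The authors sorted lung ECs, hybridized amplified RNA to Affymetrix mouse genome arrays and deposited log2 signals, 1 per probe set and array, which according to their methods come from robust multiarray averaging in Chipster, that is background correction, quantile normalization and 1 summary per probe set. The deposited log2 values lay between 5.27 and 13.99 and were used unchanged. Of 45101 probe sets, 64 array controls were set aside, and of the 45037 tested, 34945 carried 1 gene symbol, 932 several and 9160 none in the platform annotation. Quantile normalization holds the overall distribution of each array fixed, so changes are relative to the other transcripts, and signals of different probe sets are not comparable as amounts. Precision is limited by having 3 arrays per group.

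Pairs of groups were compared with limma 3.58.1 (R 4.3.3), with empirical Bayes moderation as in the authors' methods, and p-values were adjusted after Benjamini and Hochberg over all 45037 probe sets. The script was tested on simulated data. Tables and plots were made in Python 3.11.15 with numpy 2.4.6, pandas 2.3.3 and matplotlib 3.10.9, and promoter sequences are from RefSeq (GRCm38.p6).

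The chains, the 5 lists of related genes (basement membrane partners, receptors, dystroglycan glycosylation, proteases, integrin adhesion complex) and the marker lists were written from general knowledge and chosen with earlier results of these data known. The genes named are all 9 chains, the 3 genes with the nearest profile to each chain called at week 3, up to 4 called members with the largest change of each related list, the sort antigens, and the member with the largest change of each marker list, all at week 3 against control. Fbln1, Col18a1 and Cd34 were named after their values were seen. The alternatives tried were 1 fit of all arrays, the replicate number as a block, renewed quantile normalization, median centering, a filter on dim probe sets, omission of _x_at and _s_at probe sets, the mean of a gene's probe sets, the second probe set, a trended and robust variance, array weights, and each array left out in turn.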

Additional observations from a re-analysis of the deposited data

Results flagged for a closer look

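The effects of 2 time points, each measured against the same control arrays, differed for 4 chains when the time points were tested against each other directly with limma. Between week 3 and week 2 the difference was 0.83 on the log2 scale for Lama1, -1.06 for Lama3, 1.28 for Lama4 and 1.71 for Lamb1. With the probe sets used, every array of Lama4 and Lamb1 lay above control at week 3 and below it at week 2. Taken singly and in either direction, arrays did not overlap with control for 30.0% of all genes at week 3 and 17.7% at week 2. The share of all genes above control at week 3 and also below it at week 2 was not counted. None of these differences from control passed limma (week 3 and week 2 adjusted p = 0.199 and 0.0807 for Lama4, 0.0926 and 0.175 for Lamb1). The second Lama4 probe set overlapped control at week 3, and some other Lamb1 probe sets did so at week 2. Between week 3 and week 1 the difference was 1.50 for Lama1 and 1.55 for Lamb1. Each of these calls was lost without at least 1 of the arrays compared.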

How the results depend on the processing

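Of the counts of called chains, that at week 3 against control was 4 with each array left out, 6 with all arrays in 1 fit and 5 with the mean of a gene's probe sets or a trended and robust variance. It was 1 of 5 measured with the second probe set. Omission of _x_at and _s_at probe sets added Lamb1 to the calls at week 3 against control (adjusted p = 0.0202). At week 1 the count was 1 (Lama2) instead of 0 with all arrays in 1 fit, with dim probe sets removed, with the mean of a gene's probe sets and with a trended and robust variance. At week 2 it was 3 instead of 0 (Lama1, Lama2 and Lama4) under the first 3 of these and 2 (Lama2 and Lama4) under the last. Week 3 against week 1 gave 5, 4, 5 and 5 chains under the same 4 alternatives, 1 with the second probe set, and 0 to 2 with 1 array left out. Array weights added Lama3 to the calls against week 1 (adjusted p = 0.0342). Week 3 against week 2 gave 5 under each of those 4 alternatives, with Lamc1 gained, 2 with the second probe set and 0 to 2 with 1 array left out. The F test called 3 of 5 with the second probe set and 5 to 7 of 9 with 1 array left out. Called partners of the basement membrane numbered 10 with the mean of probe sets and 11 with a trended and robust variance, against 6, and called receptors 1 of 11 with the second probe set. The share of all genes called under each of these alternatives is not given here. A gain in calls can therefore not be read as particular to the chains or the partners. The causes of these differences were not tested.

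The labels do not say whether arrays of the same replicate number belong together. Deviations of same-numbered arrays correlated by -0.10 to 0.06 over 18 pairs, and 6 pairs correlated best with their own number. With 3 arrays per group this cannot settle whether such arrays were processed together. With the replicate number as a block, 0 chains passed at week 3 against week 2 (adjusted p = 0.107 for Lama1, 0.114 for Lama3, 0.0914 for Lama4 and 0.0807 for Lamb1) and 0 against week 1 (0.0787 for Lama1 and 0.0948 for Lamb1). The block ended no other call of a chain.

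Directions changed for the second Lama3 probe set, with log2 fold changes of 0.16, 0.25 and 0.0095 against control at weeks 1, 2 and 3 and 0.0899 between weeks 2 and 1, and for Lama5 between weeks 2 and 1 with the mean of its probe sets (-0.0385). Values near 0 that did not pass changed sign with 1 array left out. Between week 3 and control, Lama5 lay between -0.115 and 0.0730. Between week 2 and control, Lamb2 lay between -0.00124 and 0.154. At week 3 against week 2, Lama2 lay between -0.0774 and 0.194 and Lamb2 between -0.0128 and 0.221. At week 3 against week 1, Lamb2 lay between -0.346 and 0.0778. At week 2 against week 1, Lamb3 lay between -0.215 and 0.200, Lama5 between -0.0655 and 0.0587 and Lamc1 between -0.000326 and 0.133. Of 516 values of single chains under the 10 other alternatives, 467 kept direction and call. With 3 arrays per group, the signal of dim probe sets such as the second of Lama3 limits what could be seen.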
